A study of Mus musculus with 12 samples.

Results

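The tumour necrosis factor (TNF) superfamily was followed through mouse pancreatic islets and the macrophages and endothelial cells sorted from them. Its members were taken as the protein-coding genes of the deposited table whose symbol starts with Tnfsf or Tnfrsf, together with Tnf, Lta, Ltb, Ltbr, Cd40, Cd40lg, Fas, Fasl, Cd27, Cd70, Eda, Edar, Eda2r and Relt. That gave 44 of 22711 genes, of which 17 are ligands, 6 are receptors with a death domain, 3 are decoy receptors and 18 are other receptors. The rule uses gene names and no measured value, but it was set with earlier results of these data known.

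TNF superfamily ligands are made mostly as trimers on the cell surface and act on receptors of neighbouring cells, or are shed and act at a distance. Receptors with a death domain can start apoptosis or necroptosis, the other signalling receptors recruit TRAF adaptors and switch on NF-kappaB, and decoy receptors bind a ligand without passing on its full signal. In islets, TNF and the Fas and TRAIL ligands are known for their part in inflammation and beta cell death, and several other pairs control lymphocytes and myeloid cells.

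The mice of all 4 groups carried both transgenes of the RIP-rtTA; TetO-VEGF-A strain. The rat insulin promoter places the activator rtTA in beta cells, and a VEGF-A transgene is transcribed there once doxycycline (Dox) is given. The 12 libraries fell into 4 groups of 3, namely CD11b+ macrophages sorted from dispersed islets after 1 week of Dox (Dox macrophages), CD31+ endothelial cells sorted likewise (Dox endothelial cells), whole islets after 1 week of Dox (Dox islets) and whole islets with No Dox (No Dox islets). Sorted cells from mice without Dox, and islets from mice lacking either transgene, are not analysed here, so the effects of Dox and of VEGF-A cannot be told apart. The labels do not state the age of the mice, how many were pooled, or whether replicates are different animals. The p-values therefore rest on the spread between libraries, which may be technical.

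Values are the authors' normalized signal, a linear unit with a floor of 1, and means are given with the SD of 3 libraries (SD, n = 3). The signal is not scaled to gene length, so levels are compared between groups. Where signals of different genes are summed or set side by side, they do not give the relative amounts of those genes. Summed signal was 1.76e+07 to 2.52e+07 per library, read numbers were not stated, and 25.4 to 35.4% of genes were at the floor. The gene Vegfa had a signal of 2027 ± 422 in Dox islets, against 3967 ± 637 in No Dox islets (limma, adjusted p = 0.0853). Whether the authors' gene model counts the transgene in this signal is not stated. The summed signal of 12 macrophage markers was 334114 to 355990 in Dox macrophages and 2853 to 4001 in Dox endothelial cells, and that of 10 endothelial markers was 2137 to 2819 in Dox macrophages and 320384 to 369704 in Dox endothelial cells. Most of the macrophage marker sum in the endothelial libraries came from Mertk (2676, 2784 and 3410). The 6 mural cell markers summed to 17243 to 63591 in Dox endothelial cells and to 3772 to 14239 in Dox macrophages. Of other leukocyte lists, 7 neutrophil markers summed to 3455 to 4228 in Dox macrophages, against 98.3 to 209.9 in Dox endothelial cells, and 13 T and NK cell markers to 824 to 2211, against 95.8 to 132.8. The 7 dendritic cell markers summed to 11446 to 14653 in Dox macrophages, against 9926 to 10518 in Dox endothelial cells. Of these 7, 5 were higher in macrophages, namely Flt3, Xcr1, Itgae, Ccr7 and Cd209a (5235 to 7590), and 2 were lower. The 2 were Zbtb46, with 1356 to 2000 in macrophages and 6779 to 7496 in endothelial cells, and Clec9a, with 507 to 681 and 2767 to 3070. Most of the dendritic marker sum in the endothelial libraries came from these 2. In the macrophage libraries Csf3r made up 2155 to 3001 of the neutrophil sum, S100a9 173 to 582, S100a8 210 to 260 and Mpo 109 to 300, while Ly6g was at 1.64 or less. Cd4 made up 705 to 1218 of the T and NK sum while Cd3d, Cd3e and Cd3g were at 12.1 or less. The NK markers Ncr1 (212), Klrb1c (250), Gzmb (272) and Nkg7 (90.3) were highest in macrophage replicate 3, against 59.7 or less in replicates 1 and 2. The part of other cell types of the fractions in the results was not tested. Acinar markers ran from 1388 to 404758 between macrophage libraries and from 259 to 120369 between endothelial libraries. In 2 islet libraries, Dox replicate 1 and No Dox replicate 2, the deviation from the other libraries rose with the GC content of the gene (Spearman's rho across genes of 0.58 and 0.65), whereas the other 4 islet libraries had rho between -0.45 and -0.33.

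In 15 members all 3 macrophage libraries lay above all 9 others, in 7 members all 3 endothelial libraries did, and in 0 members did either islet group stand above the rest. Of all 22711 genes, 12% stood highest in macrophages by this measure, 6.8% in endothelial cells, 1.54% in Dox islets and 5.23% in No Dox islets. The 15 were the ligands Tnf, Lta, Ltb, Tnfsf8, Tnfsf9, Tnfsf13, Tnfsf13b, Tnfsf14 and Tnfsf15 and the receptors Cd40, Relt, Tnfrsf1b, Tnfrsf11a, Tnfrsf13b and Tnfrsf14. The 7 were the ligand Tnfsf10, the death domain receptors Fas and Tnfrsf10b, the decoys Tnfrsf11b, Tnfrsf22 and Tnfrsf23, and Tnfrsf26. By role, 9 of the 17 ligands stood highest in macrophages and 3 of 3 decoys in endothelial cells.

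**Figure D1:**
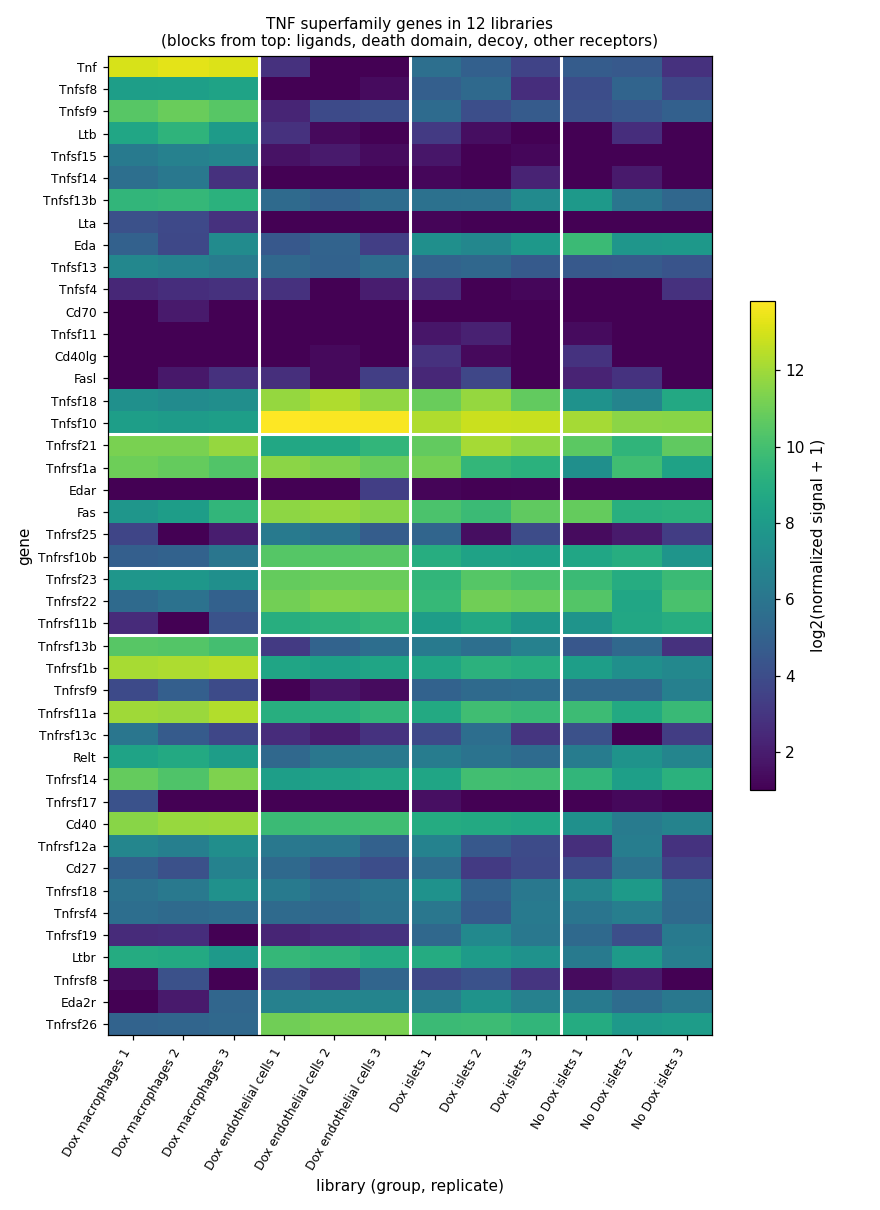
Log2(normalized signal + 1) of the 44 TNF superfamily genes (rows, in 4 blocks by role) in the 12 libraries (columns, 3 per group). Within each block, genes run from those with the largest excess in macrophages over endothelial cells to those with the largest deficit, and Tnf, Tnfsf8, Tnfsf9 and Ltb stand out in the macrophage columns.

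Whole islets were compared to ask how 1 week of Dox changed these genes in the intact tissue. Of 29 members tested, 2 were higher in Dox islets and 0 were lower, Tnfsf18 and Cd40. Over all 14443 genes tested, 5.74% passed the threshold of an adjusted p under 0.05, 4.33% higher and 1.41% lower, so the members' share of 6.90% was near that of all genes. At an unadjusted p under 0.05 there were 7 members, but the share of all genes at that level was not computed, so nothing is read from this count. The median log2 difference of the 29 was 0.53, against 0.11 for all genes, and 22 of 29 lay above 0, against 56.4% of all genes.

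Tnfsf18, the ligand of the T cell receptor GITR that is also made by endothelial cells (ENSMUSG00000066755, chromosome 1 from 163424786 to 163435421 of build mm9), had signals of 1879, 3495 and 1735 in the Dox islets, against 183, 108 and 427 in the No Dox islets. Every Dox library lay above every No Dox library. The means were 2369.6 ± 977 and 239 ± 167, so the log2 difference was 3.46 (SE 0.51, adjusted p = 0.0124 by limma). Over 16 alternative settings the difference stayed between 3.00 and 3.99 and passed the threshold in 14, the exceptions being no filter on low values (adjusted p = 0.0993) and leaving out Dox replicate 2 (adjusted p = 0.0943).

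Cd40, the costimulatory receptor of antigen-presenting cells and activated endothelium (ENSMUSG00000017652, chromosome 2 from 164881127 to 164898448 of build mm9), had 465, 445 and 388 in the Dox islets, against 169, 79.3 and 107 in the No Dox islets. The 3 Dox libraries lay close together and above the No Dox libraries. The means were 433 ± 40.2 and 119 ± 46.1, a log2 difference of 1.92 (SE 0.43, limma's adjusted p = 0.0335). The direction held in 16 of 16 alternatives (1.62 to 2.21), but the call held in only 7 and was lost when any 1 of Dox replicates 1, 2 or 3 or of No Dox replicates 2 or 3 was left out (adjusted p between 0.0551 and 0.169).

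Another 7 tested members had groups that did not overlap but did not pass the threshold, which together with Tnfsf18 and Cd40 makes 9 of 29 (31.0%), against 25.4% of all genes. Of the 7, only Relt, a TRAF-binding receptor of lymphoid and myeloid cells, had the lower values in Dox islets, 81.2, 57.3 and 43.7, against 82.9, 190.1 and 114 in No Dox islets (log2 difference -1.04, adjusted p = 0.33). Tnfrsf26, a mouse receptor related to the TRAIL decoys, had 859.5, 895 and 693 in Dox islets, against 466, 238 and 272 in No Dox islets (adjusted p = 0.061). Tnfrsf1b, the TNF receptor without a death domain, had 373, 613 and 499, against 294, 166 and 126 (adjusted p = 0.094). Both had higher values in every Dox library, by log2 differences of 1.38 and 1.40. Tnfsf10, which encodes the apoptosis ligand TRAIL, averaged 6424 ± 1153 in Dox islets and 3491 ± 800.5 in No Dox islets (log2 difference 0.89, adjusted p = 0.121). Tnfrsf21, a death domain receptor also called DR6, averaged 3093 ± 1312 and 1292 ± 533 (1.26, adjusted p = 0.132). Tnfrsf13b, the BAFF and APRIL receptor TACI, and Eda2r, the receptor of an ectodysplasin isoform, differed by 1.99 and 0.92, with adjusted p = 0.177 and 0.392.

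**Figure D2:**
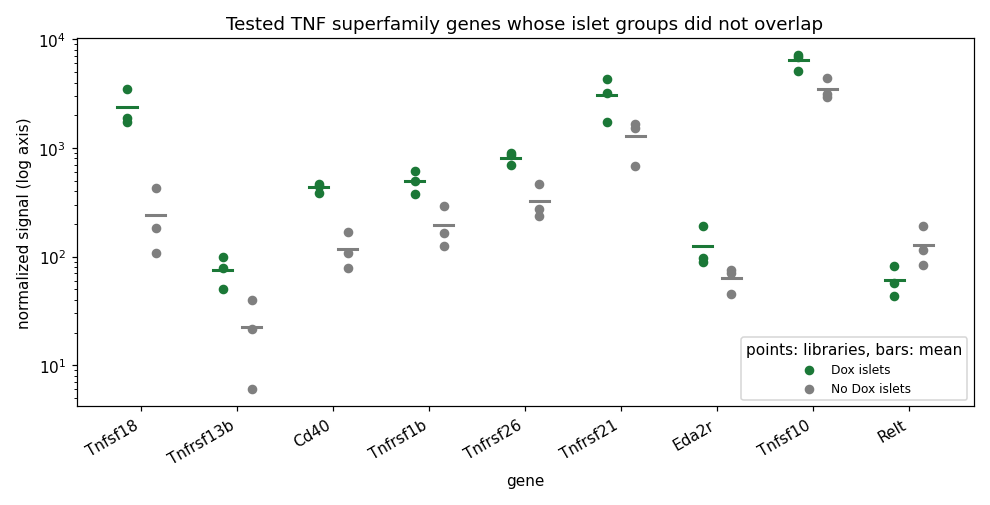
Normalized signal (log axis) of the 9 tested TNF superfamily genes whose islet groups did not overlap, with Dox islets left of No Dox islets. Points are single libraries and bars the mean of 3, and the largest gap is that of Tnfsf18, 2370 against 239.

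The remaining 20 tested members had overlapping islet groups. Tnf itself had low values in whole islets, 50.1, 30.03 and 10.8 in Dox islets and 25.2, 22.7 and 5.99 in No Dox islets (adjusted p = 0.749). Tnfrsf1a, the TNF receptor with a death domain, had 2231, 728 and 588 in Dox islets and 164, 942 and 335 in No Dox islets. Its highest value in each group came from the library with the GC trend, Dox replicate 1 and No Dox replicate 2, and the GC content of its transcript was 55.9%, against a median of 49.4% for all genes. Ltbr, the lymphotoxin beta receptor, with a GC content of 60.4%, showed the same libraries on top, with 477, 265 and 183 and 73.0, 251 and 89.1. Fas averaged 1229 ± 412 and 967 ± 709, and the TRAIL receptor Tnfrsf10b averaged 385 ± 104 and 371 ± 154, so neither death receptor differed beyond its spread (adjusted p = 0.629 and 0.928). The other 15 with overlapping groups were Eda, Tnfsf8, Tnfsf9, Tnfsf13, Tnfsf13b, Tnfrsf4, Tnfrsf9, Tnfrsf11a, Tnfrsf11b, Tnfrsf12a, Tnfrsf14, Tnfrsf18, Tnfrsf19, Tnfrsf22 and Tnfrsf23, with adjusted p from 0.343 for Eda to 0.997 for Tnfsf8. The 15 members under the filter of 15.5 in more than 3 of the 6 libraries were not tested, namely Cd27, Cd40lg, Cd70, Edar, Fasl, Lta, Ltb, Tnfrsf8, Tnfrsf13c, Tnfrsf17, Tnfrsf25, Tnfsf4, Tnfsf11, Tnfsf14 and Tnfsf15.

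The makeup of the islets moved at the same time. The 10 endothelial markers summed to 131286 to 168685 in Dox islets, against 51115 to 56206 in No Dox islets, and 7 of the 10 were called higher. Log2 differences of all 10 were 1.01 to 3.80 (median 1.40). The 12 macrophage markers summed to 16018 to 22487 in Dox islets, against 4974 to 7586 in No Dox islets, and 5 of the 12 were called higher. Log2 differences of all 12 were 1.34 to 2.12 (median 1.69). The 6 mural cell markers summed to 202432 to 421621 in Dox islets, against 47564 to 122433 in No Dox islets, and 4 of the 6 were higher (Acta2, Cspg4, Myh11 and Tagln). The 6 fibroblast markers summed to 48065 to 112894, against 15952 to 40445, and 2 of the 6 were higher (Col1a1 and Col1a2). The 13 T and NK cell markers summed to 303 to 506, against 78.6 to 124.7, with 0 of 6 tested markers higher, and the 9 beta cell markers to 163431 to 224597, against 388350 to 682545, with 5 lower. In whole islets a change in the number of cells of a type and a change in RNA per cell cannot be told apart. Set per 1000 of summed endothelial marker signal, Tnfsf18 was 14.3, 20.7 and 13.2 in Dox islets, against 3.26, 2.11 and 8.30 in No Dox islets. These values did not overlap (exact two-sided permutation p = 0.1, the smallest that 3 against 3 libraries allow). Set the same way, Tnfsf10 was 38.8, 42.9 and 52.8 in Dox islets, against 78.5, 61.1 and 57.2 in No Dox islets, without overlap in the other direction (exact permutation p = 0.1), and Tnfrsf26 was 5.70 ± 0.714 and 6.08 ± 1.94 (exact permutation p = 0.9). Per 1000 of macrophage marker signal, Cd40 was 22.1 ± 1.89 in Dox islets and 19.6 ± 8.31 in No Dox islets (exact permutation p = 0.9), and Tnfrsf1b was 25.7 ± 7.92 and 31.2 ± 13.3 (exact permutation p = 0.6). Per 1000 of endothelial marker signal, Cd40 was 3.04 ± 0.454 and 2.22 ± 0.739 (exact permutation p = 0.3). These 6 ratios were chosen after the values of the members had been seen, and their p-values are not adjusted over the 6. Since 0.1 is the smallest value possible, none of the permutation p-values could fall under 0.05, and nothing is concluded from them. Summed marker signal is not a count of cells, and single endothelial markers differed by 1.01 to 3.80 on the log2 scale. The part of cell makeup in the differences was not tested.

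**Figure D3:**
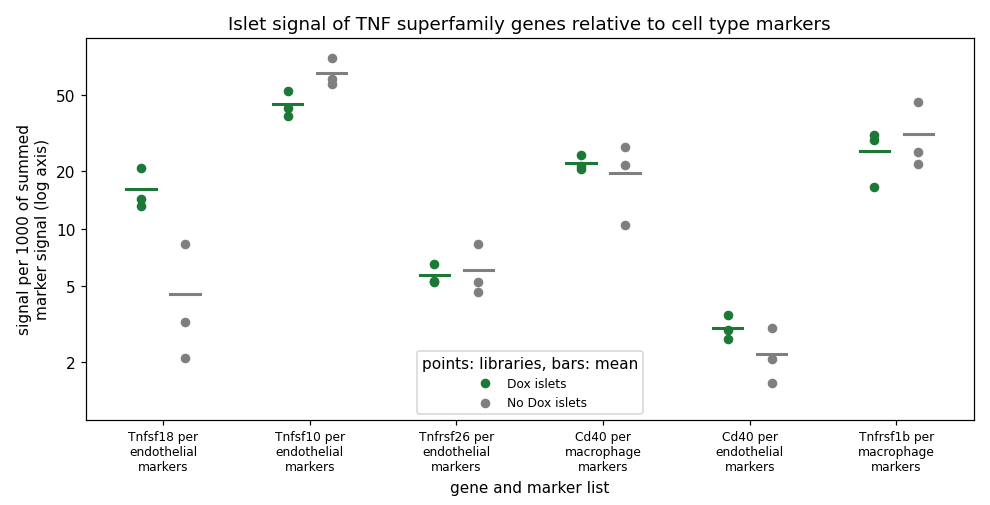
Islet signal of 5 TNF superfamily genes per 1000 of the summed signal of endothelial or macrophage markers (log axis), in Dox islets left of No Dox islets. Points are single libraries and bars the mean of 3, and the ratio of Tnfsf18 is higher and that of Tnfsf10 lower in every Dox library, whereas for Cd40, Tnfrsf26 and Tnfrsf1b the points overlap.

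The second line of the table header carries a code for each library, and the codes of the islet libraries fall into 2 runs, replicate 1 of both groups and replicates 2 and 3 of both groups. Their meaning is not stated. Tnfsf18 differed by 3.35 in the first run and by 3.51 in the second on the log2 scale, and Cd40 by 1.45 and 2.16. All 7 members without overlap that did not pass had the smaller difference in the run of replicate 1, namely Tnfrsf1b (0.34 and 1.93), Tnfsf10 (0.21 and 1.22), Tnfrsf21 (0.18 and 1.81), Tnfrsf26 (0.88 and 1.63), Tnfrsf13b (1.80 and 2.08), Eda2r (0.25 and 1.26) and Relt (-0.03 and -1.54). With a single library per group in the run of replicate 1, these values carry no test.

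The sorted fractions were compared to ask which of the 2 cell types carried each gene. Of 31 members tested, 15 were higher in Dox macrophages and 10 were lower, with 6 not past the threshold. Over all 13726 genes tested, 59.1% passed, 27.7% higher and 31.5% lower. The groups did not overlap in 25 of the 31 (80.6%), against 66.5% of all genes. Because a gene abundant in only 1 fraction passes the filter through that fraction, the members' counts are given as a description. By role, 7 of 10 tested ligands were higher and 2 lower, 1 of 5 death domain receptors was higher and 3 lower, 3 of 3 decoys were lower, and 7 of 13 other receptors were higher and 2 lower.

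Among the ligands, Tnf, the inflammatory cytokine that names the family, had 8544, 10217 and 9153 in Dox macrophages, against 6.15, 1 and 1 in Dox endothelial cells. The difference was 11.57 on the log2 scale (SE 0.50, adjusted p = 4.5e-07), and with endothelial libraries at the floor of 1 its size depends on the 1 added before the log. Ltb, which joins lymphotoxin alpha in the trimer that binds Ltbr, had 382, 649 and 265 in macrophages, against 6.15, 1.51 and 1 in endothelial cells (6.94, SE 0.59, adjusted p = 2.13e-05). Their neighbour Lta was not tested because of low values, with 17.2, 13.1 and 6.05 in macrophages and the floor of 1 in all 3 endothelial libraries. Macrophages thus held the higher value of each of these genes in every library.

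Tnf, Lta and Ltb lie within 10.9 kb on chromosome 17, and their promoter windows are shown because all 3 genes stood highest in macrophages, Lta at low values. Beside them stand Tnfsf18, the ligand that rose in Dox islets, and Tnfsf10, a ligand of the endothelial fraction. Each window holds the 250 bases before the RefSeq gene start (build GRCm38.p6), 5′ to 3′ on the strand of the gene. Capitals mark TATAAA or a kappaB consensus, the binding motif of NF-kappaB, found on either strand. The windows are chr17:35202008-35202257 (minus strand) for Tnf, chr17:35205352-35205601 (minus strand) for Lta, chr17:35194257-35194506 (plus strand) for Ltb, chr1:161494407-161494656 (plus strand) for Tnfsf18 and chr3:27316827-27317076 (plus strand) for Tnfsf10.
Tnf: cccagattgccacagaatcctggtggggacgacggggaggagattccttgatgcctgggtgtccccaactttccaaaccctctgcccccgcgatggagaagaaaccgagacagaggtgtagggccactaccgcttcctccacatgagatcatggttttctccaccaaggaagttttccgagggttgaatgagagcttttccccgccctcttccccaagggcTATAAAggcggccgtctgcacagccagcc
Lta: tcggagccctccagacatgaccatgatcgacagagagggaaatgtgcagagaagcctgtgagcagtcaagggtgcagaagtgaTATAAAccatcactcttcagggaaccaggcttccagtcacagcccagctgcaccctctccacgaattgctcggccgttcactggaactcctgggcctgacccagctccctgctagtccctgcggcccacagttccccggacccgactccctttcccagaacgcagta
Ltb: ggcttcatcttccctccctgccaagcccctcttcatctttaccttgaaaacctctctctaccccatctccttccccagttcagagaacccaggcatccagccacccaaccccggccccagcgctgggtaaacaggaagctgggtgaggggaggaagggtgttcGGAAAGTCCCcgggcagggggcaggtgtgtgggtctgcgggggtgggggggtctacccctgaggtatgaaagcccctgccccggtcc
Tnfsf18: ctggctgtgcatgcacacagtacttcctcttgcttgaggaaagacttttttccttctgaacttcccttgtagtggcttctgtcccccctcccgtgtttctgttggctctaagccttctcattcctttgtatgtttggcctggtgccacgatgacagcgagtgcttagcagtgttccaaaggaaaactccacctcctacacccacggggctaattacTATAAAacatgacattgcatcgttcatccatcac
Tnfsf10: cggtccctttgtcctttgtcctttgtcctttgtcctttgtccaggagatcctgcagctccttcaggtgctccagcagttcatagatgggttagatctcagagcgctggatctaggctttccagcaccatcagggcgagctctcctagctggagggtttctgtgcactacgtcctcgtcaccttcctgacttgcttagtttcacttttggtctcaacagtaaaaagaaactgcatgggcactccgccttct

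TATAAA began 29 bases before the start of Tnf, 34 before that of Tnfsf18 and 167 before that of Lta. The Ltb window held the kappaB consensus 87 bases before its start, and the Tnfsf10 window held no match to the searched motifs. Promoter entries were found for 35 of the 44 members. Of these 35, 7 held TATAAA (14.3% of 27025 genes did), 4 held the kappaB consensus (8.23% of genes) and 6 held TGANTCA, the AP-1 motif (7.82% of genes). The members with TATAAA were Eda2r, Lta, Tnf, Tnfrsf17, Tnfrsf23, Tnfsf11 and Tnfsf18, those with the kappaB consensus were Ltb, Tnfrsf8, Tnfrsf9 and Tnfrsf25, and those with TGANTCA were Fas, Tnfrsf8, Tnfrsf9, Tnfsf13, Tnfsf13b and Tnfsf14. The consensus was searched without regard to chromatin or binding, and a match is only a description of the letters. Cd40, Cd40lg, Cd70, Tnfrsf10b, Tnfrsf11b, Tnfrsf22, Tnfrsf26, Tnfsf4 and Tnfsf9 had no entry.

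Tnfsf9, a costimulatory ligand of T cells, had 1462, 1915 and 1425 in Dox macrophages, against 4.10, 13.5 and 15.6 in Dox endothelial cells (7.21, SE 0.47, adjusted p = 4.38e-06). Tnfsf8, the ligand of Tnfrsf8, had 291, 297 and 347, against 1, 1 and 1.56 (7.16, SE 0.37, adjusted p = 1.2e-06). Tnfsf15, which signals through the death domain receptor Tnfrsf25, had 76.7, 98.9 and 114, against 2.05, 2.81 and 1.56 (4.96, SE 0.41, adjusted p = 1.77e-05). In these 3 genes the endothelial libraries lay under the filter of 15.5 or just above it. Both B cell survival ligands were also higher, Tnfsf13b, or BAFF, with 677 ± 91.7 in macrophages and 39.8 ± 6.80 in endothelial cells (4.06) and Tnfsf13, or APRIL, with 101 ± 21.0 and 39.4 ± 7.98 (1.33). Tnfsf13 lies inside BC096441 on the same strand and overlaps 2010012P19Rik on the other, and Tnfsf9 overlaps Gm11110 on the other strand, so without a statement on strand their reads cannot be separated from those genes. The call of Tnfsf13 was lost without endothelial replicate 2 (adjusted p = 0.0552).

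Of the 2 ligands lower in macrophages, Tnfsf10 had 293, 259.9 and 287 in Dox macrophages, against 14493, 13762 and 13255 in Dox endothelial cells. All 3 endothelial libraries lay within a narrow band far above the macrophage libraries, and the difference was -5.62 (SE 0.10, adjusted p = 2.36e-08). Tnfsf18 had 173, 143 and 159 in macrophages, against 3530.3, 4978 and 3331 in endothelial cells (-4.61, SE 0.19, adjusted p = 3.4e-07). Eda, the ectodysplasin ligand, was not past the threshold, with 30.4, 12.5 and 145 and 22.0, 33.0 and 9.48.

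Among the receptors with a death domain, Tnfrsf10b, the mouse TRAIL death receptor, had 28.4, 31.2 and 64.5 in macrophages, against 1392, 1393 and 1442 in endothelial cells (-5.16, SE 0.33, adjusted p = 4e-06). Fas, the receptor of Fas ligand, averaged 393 ± 259 and 3221 ± 336 (-3.22, adjusted p = 0.000166). Tnfrsf25, the receptor of Tnfsf15, averaged 5.25 ± 5.69 and 53.3 ± 25.1 (-3.41, adjusted p = 0.00478). These 3 were lower in macrophages, whereas Tnfrsf21 was higher, with 2786 ± 636 in macrophages and 517 ± 163 in endothelial cells (2.45, adjusted p = 5.12e-05). Tnfrsf1a was abundant in both fractions, with 2069, 1776 and 1310.1 and 3086, 2580.5 and 1909, and did not pass (-0.55, adjusted p = 0.0612). With the replicate number as a block it was called lower in macrophages (adjusted p = 0.00176).

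The decoys parted the fractions by wide margins. Tnfrsf11b, osteoprotegerin, which captures the RANK ligand and TRAIL, had 4.91, 1 and 18.1 in Dox macrophages, against 518, 601 and 725 in Dox endothelial cells (-6.65, SE 0.75, adjusted p = 0.00011). Tnfrsf22, a mouse TRAIL decoy, had 42.4, 56.3 and 30.2, against 2161, 2667 and 2545 (-5.84, SE 0.26, adjusted p = 5.51e-07). Tnfrsf23, the other mouse TRAIL decoy, averaged 198 ± 28.1 and 1867 ± 72.0 (-3.24), and Tnfrsf26, grouped with the other receptors, had 32.6, 35.8 and 39.3 and 2105, 2455 and 2412 (-5.98, SE 0.20, adjusted p = 1.43e-07). TRAIL, its death receptor and its decoys were thus all higher in the endothelial fraction. Tnfrsf22, Tnfrsf23 and Tnfrsf26 are close paralogs, and how the authors' counting shared reads between them is not stated. Tnfrsf22 also had a second entry in the table, which overlaps the end of this gene by 1778 bases and stayed between 1 and 1.58 in all 12 libraries.

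The other receptors higher in macrophages were led by Tnfrsf13b, with 1455, 1332 and 1012 in Dox macrophages, against 8.20, 32.7 and 48.5 in Dox endothelial cells (5.66, SE 0.58, adjusted p = 6.54e-05). Tnfrsf1b averaged 5005 ± 587 and 354 ± 35.7 (3.82), and Tnfrsf11a, the receptor RANK of osteoclast precursors, 4318 ± 739 and 589 ± 83.8 (2.87). Relt (2.57), the LIGHT receptor Tnfrsf14 (2.45) and Cd40 (1.92) followed, Cd40 with 3440.1 ± 443 in macrophages and 902 ± 60.7 in endothelial cells. Tnfrsf12a, the TWEAK receptor Fn14, was the smallest of these differences at 1.22 (adjusted p = 0.0383). It lost the call with the replicate block (adjusted p = 0.0532), in 3 other alternatives and without either of macrophage replicates 1 and 3 or of endothelial replicates 2 and 3, and it overlaps Hcfc1r1 on the other strand. Eda2r averaged 13.3 ± 19.9 in macrophages and 107 ± 8.39 in endothelial cells (-4.05, adjusted p = 0.00809), with 1 macrophage library at the floor and 1 at 36.3. Ltbr (-0.74, adjusted p = 0.0746) was lower in macrophages only with the replicate block (adjusted p = 0.00967) or with each library's GC trend removed (adjusted p = 0.0406), and Cd27, Tnfrsf4 and Tnfrsf18 did not pass. The untested 13 were Cd40lg, Cd70, Edar, Fasl, Lta, Tnfrsf8, Tnfrsf9, Tnfrsf13c, Tnfrsf17, Tnfrsf19, Tnfsf4, Tnfsf11 and Tnfsf14. Of these, Tnfsf14, the ligand LIGHT, had 49.6, 70.3 and 6.05 in macrophages and the floor of 1 in the endothelial libraries, and the lymphocyte ligands Cd40lg, Cd70 and Fasl stayed at 12.4 or less in all 12 libraries.

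**Figure D4:**
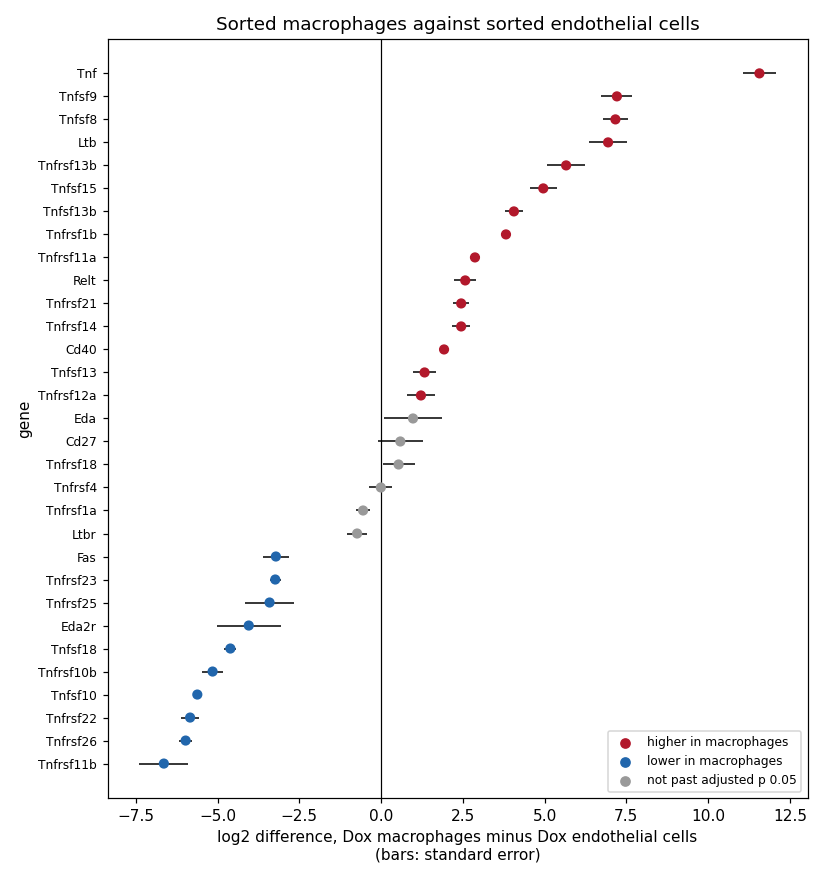
Log2 difference of the 31 tested TNF superfamily genes, Dox macrophages minus Dox endothelial cells, with standard errors (3 libraries per group). Red points were higher and blue points lower in macrophages at an adjusted p under 0.05, from Tnf at 11.57 to Tnfrsf11b at -6.65.

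Dox macrophages and Dox endothelial cells were each also set against the Dox islets they came from, with the same sorted libraries as above, so the comparisons are not independent of each other. Against Dox islets, 13 of 33 tested members were higher in macrophages and 10 were lower, where 21.3% and 31.4% of 14479 genes were (52.7% in all). The groups did not overlap in 24 of the 33 (72.7%), against 60.9% of all genes. The 6 largest rises were the genes already described, and what is new is their islet level. For scale, the 12 macrophage markers summed to 334114 to 355990 in Dox macrophages and to 16018 to 22487 in Dox islets. The sorted cells came from dispersed islets, and the part of dispersal and sorting in any difference from whole islets was not tested. Tnf had 50.1, 30.03 and 10.8 in Dox islets, a difference of 8.45 (SE 0.48, adjusted p = 1.99e-06) from the macrophage mean of 9305. Ltb had 7.95, 1.77 and 1 in Dox islets (6.78, adjusted p = 4.59e-05), and Tnfsf15 had 2.46, 1 and 1.35 (5.25, adjusted p = 5.39e-05). Ltb and Tnfsf15 were at or near the floor in the Dox islets, and Tnf had low values above it. Tnfsf9 had 43.1, 15.9 and 25.04 in Dox islets (5.88, adjusted p = 7.44e-06), Tnfrsf13b 78.3, 50.3 and 98.1 (4.08, adjusted p = 1.99e-05) and Tnfsf8 28.1, 40.4 and 5.41 (3.98, adjusted p = 0.00115). The other rises were Tnfrsf1b, Tnfsf13b, Cd40, Tnfrsf11a, Relt, Tnfsf13 and Tnfrsf14, from 1.35 for Tnfrsf14 to 3.36 for Tnfrsf1b. The call of Tnfsf13 was lost without macrophage replicate 1 or 2 or islet replicate 3. That of Tnfrsf14 was lost without macrophage replicate 1 or 3, with the GC trend removed (adjusted p = 0.0913), with no filter and without the variance trend.

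The largest falls in macrophages against Dox islets were Tnfrsf11b, with 285, 419 and 223 in Dox islets (-5.62, adjusted p = 0.000335), and Tnfrsf22, with 762, 2139 and 1865 (-5.09, adjusted p = 2.58e-05). Tnfsf10 had 5103, 7231 and 6937 in Dox islets (-4.50, adjusted p = 1.01e-06), and Tnfrsf26 differed by -4.46 (adjusted p = 1.31e-05). These 4 are among the 7 members whose endothelial libraries all stood above the 9 others. Eda2r had 1, 2.75 and 36.3 in macrophages, against 89.6, 191 and 97.4 in Dox islets (-4.19, adjusted p = 0.007). Tnfrsf19, a receptor of epithelial and progenitor cells also called TROY, had 4.91, 5.501 and 1 in macrophages, against 39.2, 134 and 69.0 in Dox islets (-4.09, adjusted p = 0.00111). Tnfsf18, Tnfrsf10b, Tnfrsf23 and Fas were also lower, by -3.82, -3.25, -2.37 and -1.78. The 10 tested members not past the threshold were Cd27, Eda, Ltbr, Tnfrsf1a, Tnfrsf4, Tnfrsf9, Tnfrsf12a, Tnfrsf13c, Tnfrsf18 and Tnfrsf21, and 11 were not tested.

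In endothelial cells against Dox islets, 7 of 29 tested members were higher and 4 were lower, where 11.5% and 21.6% of 14218 genes were (33.1% in all), and the groups did not overlap in 15 of 29 (51.7%), against 48.3% of all genes. Tnfrsf10b, with 1409 ± 28.6 in Dox endothelial cells and 504, 336 and 315 in the Dox islets, had the largest rise (1.90, SE 0.23, adjusted p = 0.000339). Tnfrsf26 (1.51, adjusted p = 0.000322) and Tnfsf10 (1.12, adjusted p = 0.00184) were also higher, with the library values given earlier. Cd40 had 842, 902 and 963 in endothelial cells, against 465, 445 and 388 in Dox islets (1.06, adjusted p = 0.0033). Fas had 3149.6, 3588 and 2926 in endothelial cells, against 1158, 857 and 1671 in Dox islets (1.44, adjusted p = 0.00243). Tnfrsf11b (1.02) and Tnfrsf23 (0.86) were the smallest rises, and both calls were lost without any 1 of the 3 endothelial libraries, without Dox islets replicate 3, with no filter and with all 12 libraries in a single fit. Tnfsf18 did not pass, with 3946 ± 899 in endothelial cells and 2369.6 ± 977 in Dox islets (0.79, adjusted p = 0.0709).

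The 4 members lower in endothelial cells than in Dox islets were 1 ligand (Eda), 1 death domain receptor (Tnfrsf21) and 2 other receptors (Tnfrsf9 and Tnfrsf19). Tnfrsf9, the T cell costimulatory receptor of Tnfsf9, had 1.02, 2.26 and 1.56 in Dox endothelial cells, against 31.7, 42.4 and 45.1 in Dox islets (-3.97, SE 0.49, adjusted p = 0.000373). Tnfrsf19 had 4.10, 5.27 and 6.25, against 39.2, 134 and 69.0 (-3.56, SE 0.55, adjusted p = 0.00125). Eda had 22.0, 33.0 and 9.48, against 164, 119.9 and 227 (-3.04, SE 0.52, adjusted p = 0.00223). All 3 held low values in endothelial cells, Tnfrsf9 close to the floor. Tnfrsf21 had 412, 436 and 705, against 1733, 4351 and 3195 (-2.52, SE 0.36, adjusted p = 0.000773), and was not lower in macrophages than in Dox islets by the test (-0.08, adjusted p = 0.862). The calls of Tnfrsf9 and Tnfrsf19 were lost with quantile normalization (adjusted p = 0.0519 and 0.0761). Without Dox islets replicate 1, a library with the GC trend, 18 members passed in place of 11, adding Ltbr, Tnfrsf1a, Tnfrsf1b, Tnfrsf11a, Tnfrsf12a, Tnfrsf14 and Tnfrsf25.

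Several members sit beside each other in the genome (build mm9, with coordinates as deposited). Taking members at most 200 kb apart gave 8 loci with 20 members. On chromosome 17, Ltb, Tnf and Lta (35331384 to 35342296) all stood highest in macrophages, and so did Tnfsf9 and Tnfsf14 of the locus at 57244808 to 57333612, whose other member Cd70 was at the floor in 11 of 12 libraries. On chromosome 4, Tnfsf15 and Tnfsf8 (63385637 to 63522381) also stood highest in macrophages. On chromosome 7, Tnfrsf26, Tnfrsf22 and Tnfrsf23 (150793568 to 150871777) all stood highest in endothelial cells. Elsewhere neighbours could differ. On chromosome 1, Tnfsf18 ran up to 4978 in endothelial cells while its neighbour Tnfsf4 stayed at 6.15 or less in all 12 libraries, and on chromosome 4, Tnfrsf1b ran to 5656 in macrophages while Tnfrsf8 stayed at 35.8 or less. Tnfrsf4 and Tnfrsf18 on chromosome 4, and Cd27, Ltbr and Tnfrsf1a on chromosome 6, passed the threshold in 0 of the comparisons, although Tnfrsf1a and Ltbr passed under some alternatives and Cd27 passed with quantile normalization in both sorted fractions against Dox islets (adjusted p = 0.0315 and 0.0340). Tnfrsf1a and Ltbr both had their highest mean in endothelial cells. Cd27 lies wholly within Vamp1 and Tnfrsf18 within Gm16008, both on the other strand.

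**Figure D5:**
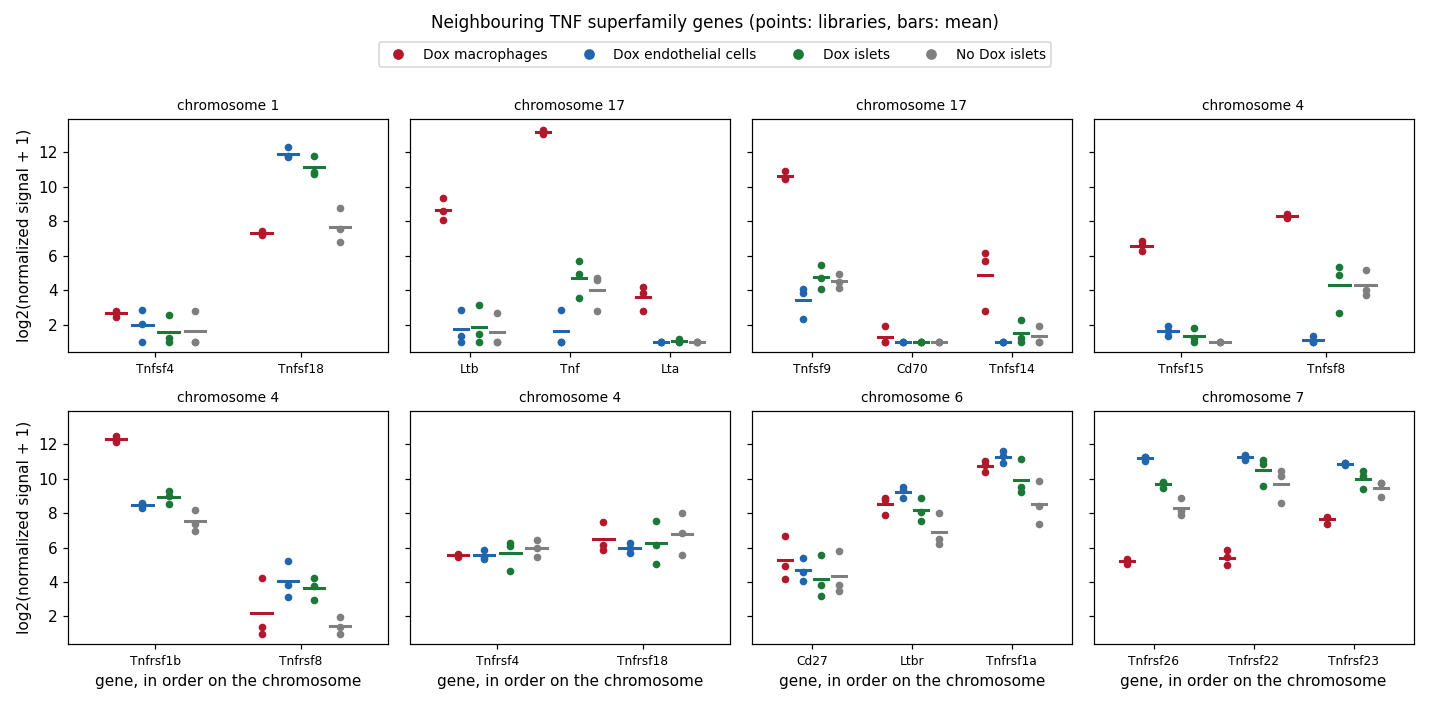
Log2(normalized signal + 1) of the 20 members in 8 loci, by group. Points are libraries and bars the mean, and the macrophage points lie on top for Ltb, Tnf, Lta, Tnfsf9, Tnfsf14, Tnfsf15 and Tnfsf8, the endothelial points for Tnfrsf26, Tnfrsf22 and Tnfrsf23.

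The fraction in which a member was higher can be set beside its change in whole islets, since the sorted libraries were not used in the islet comparison. Of the 15 members higher in macrophages, 13 were tested in islets and 11 of them (84.6%) had a difference above 0, against 56.2% of all genes higher in macrophages. The exceptions were Relt and Tnfsf13b. Of the 10 members higher in endothelial cells, 9 were tested in islets and 8 (88.9%) lay above 0, against 69.0% of all genes higher in endothelial cells, with Tnfrsf11b the exception. Some of these signs were not stable. Over the alternatives the islet sign changed for Tnfsf8, Tnfsf9, Tnfrsf11a and Tnfsf13b of the macrophage members and for Tnfrsf10b and Tnfrsf11b of the endothelial members. Higher calls in islets were made for 1 of the 13, Cd40, against 3.34% of all genes higher in macrophages, and for 1 of the 9, Tnfsf18, against 8.94% of all genes higher in endothelial cells.

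A list of 40 genes that carry TNF superfamily signals (TRAFs, death complex proteins, the ubiquitin and kinase steps to NF-kappaB, NF-kappaB subunits and their inhibitors, and the 2 shedding proteases) was tested in the same fits. In islets 1 of 40 (2.50%) passed, against 5.74% of all genes. It was Ripk3, the kinase of necroptosis, with 514, 756 and 537 in Dox islets, against 107, 147 and 71.6 in No Dox islets. The groups did not overlap, and the difference was 2.50 (SE 0.43, adjusted p = 0.0147). The call held in 13 of 16 alternatives (2.23 to 2.85) and was lost with no filter (adjusted p = 0.0684) and without Dox replicate 2 (0.111) or 3 (0.0672). In the sorted cells Ripk3 had 446, 474 and 482 in Dox macrophages and 900.4, 1047 and 799 in Dox endothelial cells, and it was lower in macrophages (adjusted p = 0.000959). The part of cell makeup in its islet difference was not tested.

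Between the fractions, 21 of the 40 were higher in macrophages and 6 lower, where 27.7% and 31.5% of all genes were. Tnfaip3, the NF-kappaB inhibitor A20, averaged 111950.0 ± 20461 in Dox macrophages and 3675 ± 391 in Dox endothelial cells (4.92, adjusted p = 8.98e-08), Rel, an NF-kappaB subunit, differed by 4.01 and the adaptor Traf1 by 3.93. The largest falls were Traf4 (-1.52), the necroptosis effector Mlkl (-1.43) and the caspase inhibitor Xiap (-1.10), and the 6 lower genes also held Ripk1 and Ripk3. Against Dox islets, where 21.3% of all genes were higher in macrophages and 31.4% lower, 18 of the 40 were higher, led by Tnfaip3 (5.63), Rel (4.86) and the inhibitor Nfkbie (4.36), and 2 were lower, Traf4 (-1.56) and Xiap (-0.72). The call of Traf4 was lost without macrophage replicate 1 or Dox islets replicate 1 or 2, that of Xiap was lost in 10 alternatives, and its difference shrank to -0.10 with the GC trend removed. In endothelial cells against Dox islets, 10 of the 40 were higher and 0 lower by limma, where 11.5% and 21.6% of all genes were. At an unadjusted p under 0.05 15 of the 40 passed, but the share of all genes at that level was not computed, so nothing is read from that 15. Ripk1, the kinase below the TNF receptor, led with 1.68 (adjusted p = 0.000474), then Rnf31, a subunit of the linear ubiquitin ligase, with 1.25, and the NF-kappaB subunit Relb with 1.07. The count of 10 ran from 1 without endothelial replicate 2 to 23 without Dox islets replicate 1, and only Ripk1 was among the calls kept without endothelial replicate 2.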

How the data were processed

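RNA of 12 libraries was measured by sequencing. Per the labels' protocols, RNA from 100 to 300 islets or 8000 to 400000 sorted cells, with an RNA integrity number of at least 7.0, was amplified with a NuGEN Ovation kit and sequenced on an Illumina instrument. The submitters' processing notes name TopHat2 2.0 and build mm9. The deposited signal values had been normalized by the authors. How they did so, with which counting program and with what use of strand is not given in the sources used here. Low values were whole multiples of a step of each library in 99.9 to 100% of cases (tolerance 0.1 step), but 41.7 to 63.8% were multiples of 50 steps, so whole reads were not recovered, depth is unknown and no count model was used.

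Of 22793 entries, 25 had date-like symbols, which were restored by ID, and 76 symbols were listed more than once, of which the entry with the highest mean was kept. This left 22711 genes. Each comparison was fitted to its 6 libraries with limma 3.58.1 (R 4.3.3) on log2(signal + 1) with a variance trend, over genes reaching a signal of 15.5 in 3 or more libraries (15.5 being percentile 40 of the non-zero values). P-values were adjusted by Benjamini-Hochberg over all genes tested, with a threshold of 0.05. The added 1 understates differences of low genes. In data simulated for these fits, 26.1% of genes with a log2 change of 2 were recovered in islets (0% at a change of 1), 75.7% between fractions, 41.3% for macrophages against islets and 62.1% for endothelial cells against islets. Far fewer genes were changed there than the fits called (69 of 14443 had a change of 2 in islets). Simulated libraries were drawn independently, without a GC trend or pairing. These shares therefore do not give the power of the fits themselves.

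Between macrophages and endothelial cells, libraries of the same number deviated together from their group means, with correlations across genes of 0.23, 0.41 and 0.36, so the numbers were taken to pair these samples, and calls that the block changes are given beside the results. In the other comparisons at least 1 of 3 correlations was under 0.1.

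Values of single libraries are given for members past the threshold in islets and for the 6 largest rises and falls past it, without overlap of groups, elsewhere. Other members given with values complete a group or a count and were chosen after their values were seen. Members, lists and alternatives were chosen with earlier results of these data known. Promoters are RefSeq windows.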

Additional observations from a re-analysis of the deposited data

How the results depend on the processing

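The 2 calls in Dox islets against No Dox islets became 0 with no filter, 5 with all 12 libraries in a single fit (adding Tnfrsf1b, Tnfrsf26 and Tnfsf10), 1 without the variance trend and 1 without both libraries of the other GC trend, and leaving out 1 library at a time gave 0 to 3. For macrophages against endothelial cells (25 calls), macrophages against Dox islets (23) and endothelial cells against Dox islets (11), leaving out 1 library gave 23 to 25, 21 to 25 and 9 to 18, and no other alternative moved the count by over 1.5 times. With the replicate block the 4 counts were 1, 26, 26 and 16, and in islets the block lost Cd40 (adjusted p = 0.0640). Between macrophages and endothelial cells the block changed the calls of Ltbr, Tnfrsf1a and Tnfrsf12a and no other member's, and in the remaining comparisons the deviations of same-numbered samples did not show that the numbers pair them. Of 61 called results of members, 48 kept their call under every alternative run and 0 changed sign. Of 61 results not past the threshold, 21 changed sign at least once. Those that the report gives a value for were Tnfrsf10b in islets (-0.0195 with quantile normalization, -0.0397 with median-ratio rescaling and -0.25 to 0.40 on leaving out a library), Tnfsf8 in islets (-0.30, -0.13 and -0.52 to 0.82, and -0.12 with the GC trend removed) and Tnfrsf21 in macrophages against Dox islets (0.0147, 0.11 and -0.44 to 0.22). With quantile normalization the sign also changed for Tnfrsf9 in macrophages against Dox islets (0.20) and for Tnfsf13b (0.27) and Tnfsf9 (0.72) in endothelial cells against Dox islets. The cause was not tested.

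For the signalling list, an addition made after seeing the data, the islet count of 1 became 0 with no filter, 6 with all 12 libraries and 3 with the GC trend removed, and 0 to 1 on leaving out a library. The count of 10 in endothelial cells against Dox islets became 18 with quantile normalization, 5 without the variance trend and 1 to 23 on leaving out a library. On leaving out a library the other 2 counts ran from 25 to 27 (macrophages against endothelial cells) and 16 to 26 (macrophages against Dox islets). Among the other alternatives the first count ran from 19 with all 12 libraries in a single fit to 29 with the GC trend removed. The second reached 28 with quantile normalization. Removal of the GC trend was also added after seeing the data. Since depth is unknown, no limit of detection can be given for members at the floor.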
